A study of Rattus norvegicus with 16 samples.

Results

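The Egr genes encode the zinc finger transcription factors Egr1, Egr2, Egr3 and Egr4, and 6 of the 848 genomic regions where serum response factor (SRF) was mapped in these rat cells had an Egr gene as their nearest gene. These 6 regions were taken by gene name from the authors' annotation. Egr3 had 3 regions, and Egr1, Egr2 and Egr4 had 1 each. All cells were wild type (WT) primary cultures from rat brain, started as oligodendrocyte precursor cells (OPC) that were isolated by immunopanning, the capture of cells on antibody-coated dishes. The oligodendrocyte group (OL) had 6 days of growth in proliferation medium and was then fixed on day 3 of differentiation medium. The OPC group, from the same preparations, was fixed in proliferation medium after 6 days of growth. SRF-bound chromatin was immunoprecipitated (ChIP) and sequenced in 3 OL libraries (replicates 1, 2 and 4) and 4 OPC libraries (replicates 1 to 4), from 4 independent preparations that the stages share by replicate number, with no OL library of preparation 3, and each stage had 1 library made with a control IgG antibody. These are cultured cells, and ChIP reads do not measure expression, so the labelled cell types could not be checked here against the expression of their markers.

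SRF binds the CArG box, a short element made of CC, a run of A or T bases and GG. It works with cofactors of 2 kinds, the ternary complex factors, ETS proteins activated by ERK signalling, and the myocardin-related factors, which respond to free actin. Egr genes are textbook immediate early genes, switched on within minutes of growth factor or activity signals, and in mouse and human the Egr1 promoter is known for several serum response elements. Egr2, also called Krox20, is required for myelination by Schwann cells of the peripheral nerve, whereas oligodendrocytes form the myelin of the central nervous system.

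The promoter sequences of 3 of the 4 genes were found in the RefSeq table (assembly GRCr8). They are shown because the CArG boxes in them are the elements that SRF is known to bind, and because the boxes can be compared between genes. The 250 bases before the annotated start are given on the gene's strand, 5′ to 3′. Capitals mark an exact CArG box in Egr1 and Egr2, and in Egr4 the match closest to one, with 1 mismatch. The windows are chr18:26736828-26737077 (plus strand) for Egr1, chr20:21054442-21054691 (minus strand) for Egr2 and chr4:119607818-119608067 (minus strand) for Egr4.
Egr1: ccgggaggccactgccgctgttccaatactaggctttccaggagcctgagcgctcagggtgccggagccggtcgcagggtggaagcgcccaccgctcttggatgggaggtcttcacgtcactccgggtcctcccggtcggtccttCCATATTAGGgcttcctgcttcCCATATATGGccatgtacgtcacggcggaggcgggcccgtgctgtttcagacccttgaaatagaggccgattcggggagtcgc
Egr2: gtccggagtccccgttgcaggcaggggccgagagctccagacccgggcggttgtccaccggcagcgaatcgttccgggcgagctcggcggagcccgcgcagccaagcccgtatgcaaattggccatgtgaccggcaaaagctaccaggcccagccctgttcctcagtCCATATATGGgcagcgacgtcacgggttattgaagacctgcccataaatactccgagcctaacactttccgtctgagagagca
Egr4: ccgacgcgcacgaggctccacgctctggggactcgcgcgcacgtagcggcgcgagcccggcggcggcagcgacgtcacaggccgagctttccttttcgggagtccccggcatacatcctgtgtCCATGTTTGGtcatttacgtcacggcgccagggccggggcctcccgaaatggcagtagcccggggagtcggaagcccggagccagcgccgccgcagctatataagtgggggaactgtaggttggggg

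Egr1 carried a pair of exact CArG boxes, Egr2 carried 1 and Egr4 none. An exact box was CC, then 6 bases that are each A or T, then GG, which reads the same way on both strands. In windows of 300 bases (250 before and 50 after the start), 548 of 33469 RefSeq promoters held at least 1 exact box (1.64%) and 7 held 2 or more (0.0209%). With 1 mismatch allowed, as in Egr4, the share was 21.3%, so such a match is common. The boxes of Egr1 began 105 and 83 bases before the start and that of Egr2 also began 83 bases before its start. The CRE core TGACG, bound by CREB proteins, was read on the opposite strand as CGTCA at 2 places in Egr1, 1 in Egr2 and 2 in Egr4, and 21.2% of promoters held it on either strand. The ETS site CCGGAA, searched as these exact letters on both strands, matched at 1 place in Egr2 and in neither of the others. It was held by 15.0% of promoters. The shorter ETS core GGAA (TTCC on the other strand) was not searched, so its presence beside the boxes was not assessed. The motif GCGNGGGCG, which Egr proteins themselves bind, matched in none of the 3 windows, against 4.98% of promoters. A missing match says only that these letters are not in the window.

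In all 3 genes a CRE core followed the CArG box at the same spacing of 7 bases. This arrangement was looked for after the sequences had been seen, and is given as a description. Capitals mark the box (the 1-mismatch match in Egr4) and the CRE core in these stretches, which run from 83 to 62 bases before the start in Egr1 and Egr2 and from 127 to 106 bases before it in Egr4.
Egr1: CCATATATGGccatgtaCGTCA
Egr2: CCATATATGGgcagcgaCGTCA
Egr4: CCATGTTTGGtcatttaCGTCA
The box and the CRE core were the same letters in Egr1 and Egr2, while the 7 bases between them differed. With up to 1 mismatch in the box, 8 of 33469 promoters held the arrangement on either strand (0.0239%), and 4 held it with an exact box (0.0120%).

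The 6 regions, in Rnor_6.0 coordinates, covered promoters, a site upstream of Egr3 and an intron. The Egr1 region (ENSRNOG00000019422, chromosome 18, 27656864 to 27657669) was 806 bp wide and was annotated as promoter, with its centre 362 bp upstream of the transcription start site (TSS). The Egr2 region (ENSRNOG00000000640, chromosome 20, 22458751 to 22459300) was 550 bp wide and centred on the TSS. Of the Egr3 regions (ENSRNOG00000017828, chromosome 15), one lay between genes 2216 bp upstream of the TSS (51754294 to 51754747, 454 bp) and one in the promoter 349 bp upstream (51756285 to 51756490, 206 bp). The third Egr3 region (51650531 to 51650630, 100 bp) lay 106156 bp upstream of the TSS of Egr3, in intron 5 of 7 of another gene, ENSRNOG00000026247, so that it belongs to Egr3 only as the nearest TSS. The Egr4 region (ENSRNOG00000015719, chromosome 4, 117296153 to 117296265, 113 bp) was annotated as promoter, 127 bp upstream of the TSS. Of all 848 regions 54.7% were annotated as promoters, against 4 of these 6. The bases of the regions themselves were not used here, and positions were not carried between the builds.

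Egr1, Egr2 and the upstream site of Egr3 had an SRF peak in all 7 libraries, which held for 31 of the 848 regions (3.66%). The Egr3 promoter had a peak in OL replicate 1 and in OPC replicates 1, 2 and 4, and 34.7% of regions had peaks in at least 4 libraries. The Egr4 promoter had a peak in OL replicate 1 alone and the intronic region in OPC replicate 4 alone, as did 43.9% of regions in some single library. OPC replicate 4 was the only library with a peak at 256 regions. None of the 6 regions overlapped a peak of an IgG library, whereas 34 of the 848 regions did (4.01%). In all, the authors' peak lists called the Egr regions in 27 of 42 combinations of region and library, and the count was the same with a q-value of 0.001 or smaller.

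Depth limits the OL group. OL replicates 1, 2 and 4 held 12103611, 2394854 and 3363937 tags, against 9054483 to 20303444 tags in the OPC libraries. The share of tags that fell in the 848 regions was 0.187 to 0.217% in OL and 0.116 to 0.379% in OPC, where OPC replicate 4 was highest and OPC replicate 2 lowest. Read counts were therefore scaled by TMM over the regions, which sets each region relative to the others, and a change shared by all regions is removed. More reads can mean that more cells carried SRF at a site or that SRF stayed there longer, and these cannot be told apart.

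Egr1 had the most reads of the family in every library. The Egr1 promoter held 223, 58 and 70 reads in OL replicates 1, 2 and 4, against 210, 196, 166 and 286 reads in OPC replicates 1 to 4. By reads it ranked between 7 and 15 of 848 in OL and between 5 and 11 of 848 in OPC. Its 806 bp compare with a median region width of 170 bp, and a wide region collects more reads. By reads per kb the Egr1 promoter ranked between 52 and 66 in OL and between 56 and 77 in OPC. The upstream Egr3 site held 104, 22 and 40 reads in OL and 84, 87, 59 and 112 reads in OPC. Its rank by reads was 37 to 47 in OL and 53 to 98 in OPC, below Egr1 in each library. By reads per kb its rank was 57 to 101 in OL and 87 to 222 in OPC. The Egr2 promoter held 93, 15 and 24 reads in OL and 57, 74, 39 and 81 reads in OPC. It came after the upstream Egr3 site in every library, and by reads per kb it ranked 163 to 172 in OL and 174 to 513 in OPC. The small counts of OL replicate 2 carry wide counting error, since its 15 reads at Egr2 were 0.335% of its reads in regions (exact 95% binomial interval 0.188 to 0.553%, which covers counting error only).

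The remaining regions were weak. The Egr3 promoter held 23, 4 and 6 reads in OL and 24, 22, 14 and 29 reads in OPC. The Egr4 promoter held 12, 4 and 1 reads in OL and 8, 16, 10 and 8 reads in OPC. The intronic region held 2, 0 and 1 reads in OL and 5, 2, 2 and 12 reads in OPC, and the 0 of OL replicate 2 is given a limit of 3 counts. Most of these counts were 16 or fewer, so single reads move their values. The 6 regions together took 1.74, 2.30 and 1.97% of the reads in regions in OL, against 1.47, 1.69, 1.26 and 1.54% in OPC. The lowest OL value, 1.74%, was just above the highest OPC value, 1.69%. Egr1 weighs most in this sum, with 223 of the 457 family reads in OL replicate 1. On TMM-scaled reads, 7.00% of all tested single regions had every OL library above every OPC library.

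Within a library, where depth cancels, the Egr1 promoter and the upstream Egr3 site had the most reads per kb of region, and the order of the other regions varied. The Egr1 promoter had 277, 72.0 and 86.8 reads per kb in OL and 261, 243, 206 and 355 reads per kb in OPC. The upstream Egr3 site had 229, 48.5 and 88.1 reads per kb in OL and 185, 192, 130 and 247 reads per kb in OPC. Egr1 was thus denser in 6 of 7 libraries, and OL replicate 4 was the exception. Over all 15 pairs of regions, 11 passed with each of the 7 libraries taken as 1 value (exact paired permutation test of log2 reads per kb with 1 read added, two-sided, Benjamini-Hochberg over the pairs, where the smallest unadjusted p that 7 libraries can give is 0.0156). Libraries of 1 preparation are not independent, and with 1 value for each of the 4 preparations the smallest p is 0.125, so that 0 pairs could pass. All 11 pairs had the same direction in 4 of 4 preparations. They include the pairs of the intronic region with Egr1, Egr2 and each of the other Egr3 regions.

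Egr1 exceeded the upstream Egr3 site by 0.39 ± 0.23 on the log2 density scale (SD, n = 7, exact paired permutation test, adjusted p = 0.0426), and without OL replicate 4, where the order of the pair was the other way round, it was 0.46 (exact adjusted p = 0.0426). With any other library left out the pair no longer passed (exact adjusted p from 0.0781 to 0.0852), where 6 libraries allow only a larger smallest p. Egr1 exceeded Egr2 by 1.13 ± 0.30 (SD, higher in 7 of 7 libraries, exact adjusted p = 0.0234). The upstream Egr3 site exceeded the promoter of the same gene by 0.93 ± 0.26 (SD, 7 of 7 libraries, exact adjusted p = 0.0234), and Egr2 lay below the upstream Egr3 site by a log2 difference of -0.74 ± 0.20 (SD, 0 of 7 libraries positive, exact adjusted p = 0.0234). Egr2 and the Egr3 promoter exceeded the intronic region by 1.39 ± 0.79 and 1.19 ± 0.63 (SD, 7 of 7 libraries each, exact adjusted p = 0.0234 for both). With 0.5 read added in place of 1 these differences were 1.71 and 1.47. The intronic region had a peak in OPC replicate 4 alone. Its lower density than regions called in more libraries was therefore largely set by how regions were called, and is no separate result. The intronic region minus Egr4 was -1.09 ± 1.23 (exact adjusted p = 0.108). Among the promoters of Egr2, Egr3 and Egr4 no pair passed. Egr2 minus the Egr3 promoter was 0.19 ± 0.26 (exact adjusted p = 0.108), Egr2 minus Egr4 was 0.30 ± 0.72 (exact adjusted p = 0.368) and the Egr3 promoter minus Egr4 was 0.10 ± 0.71 (exact adjusted p = 0.641). The order depends on region width, since a wide region dilutes a narrow peak.

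**Figure D1:**
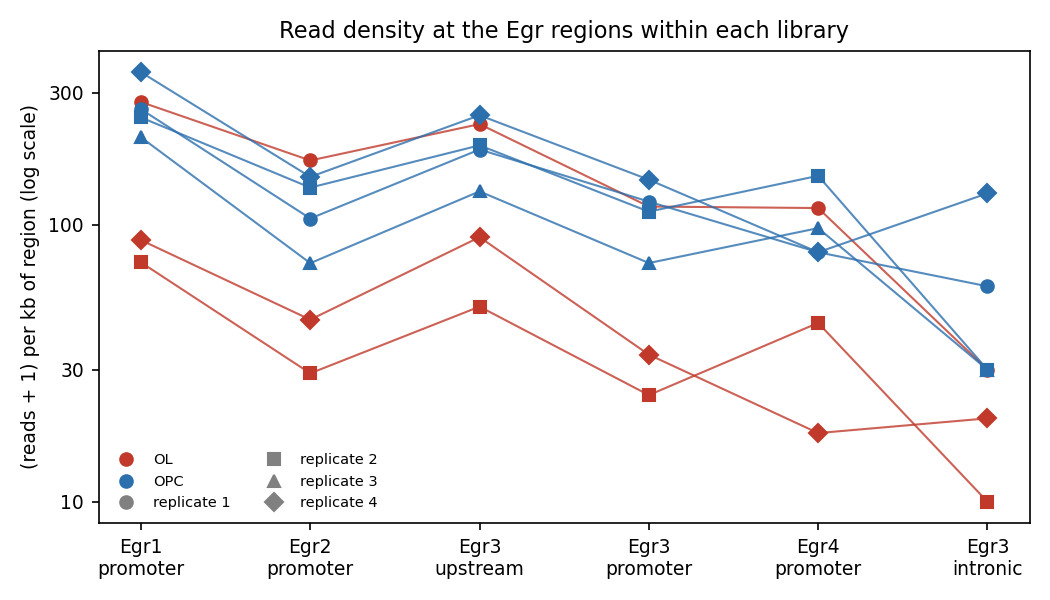
Reads per kb of region with 1 read added, on a log axis, at each Egr region (x axis) in each SRF library, with OL libraries in red, OPC libraries in blue, marker shapes for replicates and a line joining the values of 1 library. Egr1 and the upstream Egr3 site are the densest regions of each library, with Egr1 higher in 6 of 7, and OL replicates 2 and 4, which have the fewest tags, lie below the other libraries at each region.

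After scaling, 3 of the Egr regions had more reads in every OL library than in any OPC library, but none passed the test over all regions. At the Egr2 promoter the normalised read count was 74.6, 91.2 and 82.8 in OL replicates 1, 2 and 4, against 44.1, 67.0, 34.8 and 45.4 in OPC replicates 1 to 4. The groups did not overlap, and OPC replicate 2 was the OPC library closest to OL. The mean was 82.9 ± 8.30 in OL (SD, n = 3) and 47.8 ± 13.6 in OPC (SD, n = 4). The OL libraries were 1.69-fold higher in the fit, or 0.76 ± 0.23 on the log2 scale (SE, edgeR quasi-likelihood test, adjusted p = 0.107).

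At the upstream Egr3 site the normalised read count was 83.5, 134 and 138 in OL and 65.0, 78.8, 52.6 and 62.8 in OPC. The gap between the groups was narrow, because OL replicate 1 lay just above OPC replicate 2. The mean was 118 ± 30.4 in OL (SD, n = 3) and 64.8 ± 10.8 in OPC (SD, n = 4). OL was 1.75-fold higher, or 0.81 ± 0.24 on the log2 scale (SE, edgeR adjusted p = 0.0944). Without OL replicate 1 the log2 fold change was 1.10 and the site passed (edgeR adjusted p = 0.0123, with 5.93% of 523 regions called in that fit), and without both shallow OL libraries (replicates 2 and 4) it was 0.35.

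At the Egr1 promoter the normalised read count was 179, 353 and 242 in OL and 163, 177, 148 and 160 in OPC. The OPC libraries lay close together and the OL libraries were spread out, with OL replicate 1 level with OPC replicate 2. The mean was 258 ± 88.0 in OL (SD, n = 3) and 162 ± 12.1 in OPC (SD, n = 4). OL was 1.55-fold higher, or 0.63 ± 0.27 on the log2 scale (SE, edgeR adjusted p = 0.203). This difference leaned on the shallow libraries, since the log2 fold change was 0.35 without OL replicate 2 and 0.13 without OL replicates 2 and 4.

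**Figure D2:**
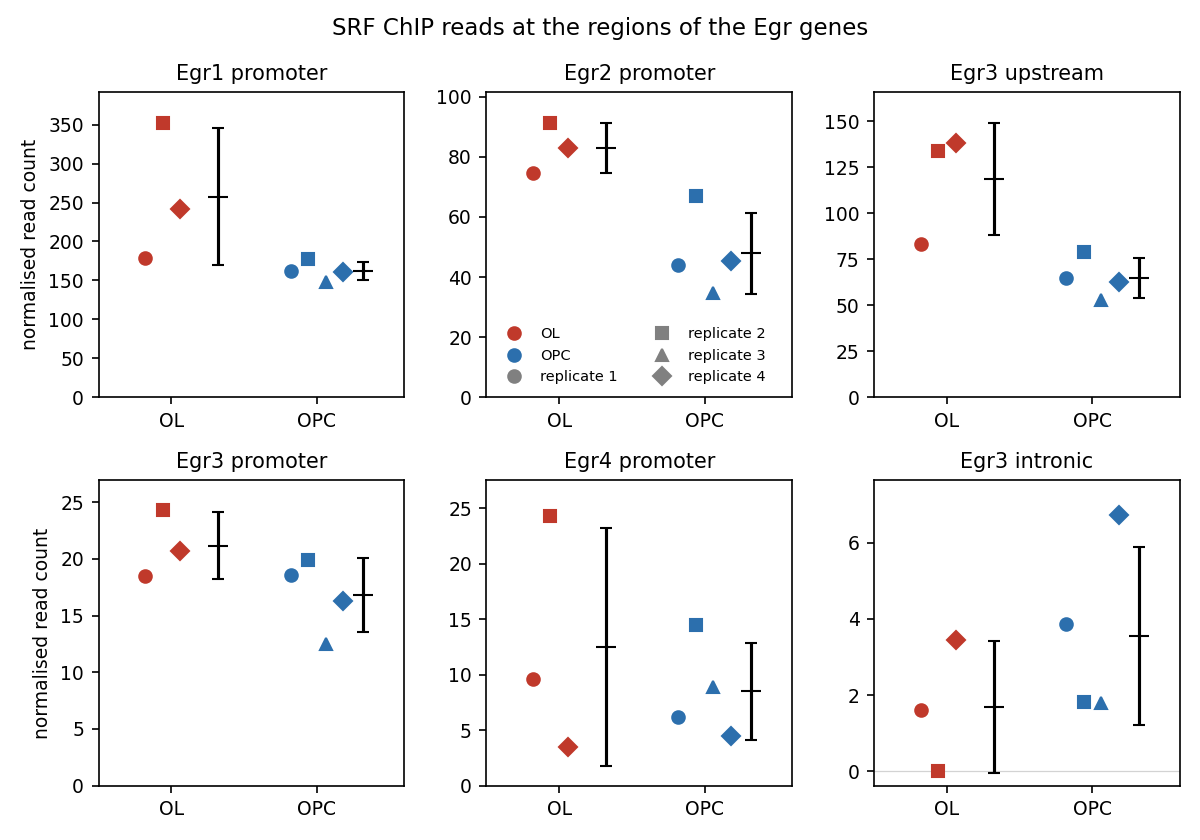
Normalised read count (y axis, reads after TMM scaling to a library of average size) at each Egr region, with OL libraries left in red and OPC libraries right in blue, a marker shape for each replicate and a black bar for the mean ± SD. The groups do not overlap at the Egr1 promoter, the Egr2 promoter and the upstream Egr3 site, and they overlap in the other panels.

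The groups overlapped at the other regions. The Egr3 promoter averaged 21.2 ± 2.96 normalised reads in OL (SD, n = 3) and 16.8 ± 3.26 in OPC (SD, n = 4). The log2 fold change was 0.23 ± 0.27 (SE, edgeR adjusted p = 0.772), and it was -0.017 when counts were scaled to all tags. The Egr4 promoter averaged 12.5 ± 10.7 in OL and 8.52 ± 4.38 in OPC (SD), with a log2 fold change of 0.32 ± 0.55 (SE, edgeR adjusted p = 0.816). That of Egr4 was 0.052 without OL replicate 2, 0.055 without OPC replicate 4 and 0.53 without OL replicate 4. The intronic region did not reach 10 reads in 3 libraries and was not tested, and it averaged 1.69 ± 1.73 in OL and 3.55 ± 2.34 in OPC (SD).

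Of the 6 Egr regions 5 entered the edgeR test and 0 passed, while 12 of all 557 tested regions did (2.15%). In the OL libraries 2 of them were higher (0.359%) and 10 were lower (1.80%). At an unadjusted p below 0.05 there were 3 Egr regions, all higher in OL, against 11.7% of all tested regions that were higher at that level. The log2 fold change was positive at 5 of 5 tested Egr regions and at 49.4% of all tested regions, and the 3 regions without overlap compare with 7.00% of all tested regions. The DESeq2 test passed 2 Egr regions, Egr2 (adjusted p = 0.0489) and the upstream Egr3 site (adjusted p = 0.0411), both higher in OL. Of the 437 regions that kept an adjusted p, 11.2% passed and 8.01% were higher in OL. Without its independent filtering DESeq2 passed 0 Egr regions, with adjusted p = 0.0610 at Egr2 and 0.0511 at the upstream Egr3 site, and 42 of 556 regions (7.55%).

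The outcome also turned on which other regions were tested. Among regions annotated as promoters alone, edgeR passed Egr1 (adjusted p = 0.0468) and Egr2 (adjusted p = 0.0157), where 2.41% of regions were called higher in OL. Among regions with peaks in at least 2 libraries and none in IgG, it passed Egr1 (adjusted p = 0.0491), Egr2 (adjusted p = 0.0371) and the upstream Egr3 site (adjusted p = 0.0330), where 3.95% were called higher. Both settings were chosen after seeing the data.

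**Figure D3:**
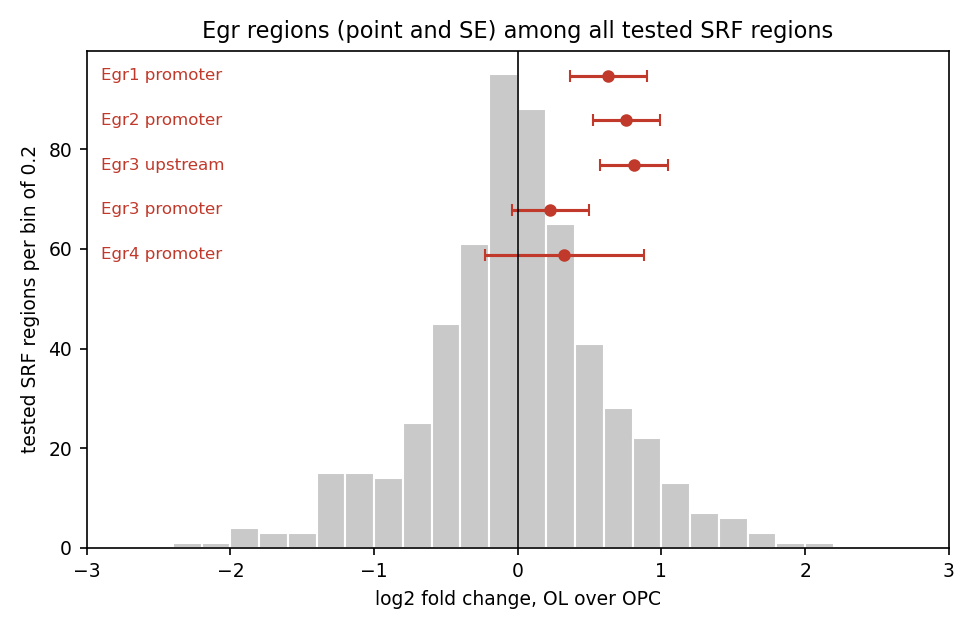
Histogram of the log2 fold change, OL over OPC, of all 557 tested SRF regions (x axis, edgeR, y axis regions per bin of 0.2), with the 5 tested Egr regions as red points with standard errors, placed at arbitrary heights. Egr1, Egr2 and the upstream Egr3 site lie right of 0 at 0.63, 0.76 and 0.81, within the right shoulder of the histogram.

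Per 1000000 tags of the library, without scaling to the regions, the groups overlapped at all of these sites. The Egr1 promoter had 18.4, 24.2 and 20.8 reads per 1000000 tags in OL, against 16.9, 9.65, 14.2 and 31.6 in OPC. The highest value was that of OPC replicate 4, which also had the largest share of tags in regions. Egr2 had 7.68, 6.26 and 7.13 reads per 1000000 tags in OL and 4.60, 3.64, 3.33 and 8.95 in OPC, with the same library on top. The upstream Egr3 site had 8.59, 9.19 and 11.9 in OL and 6.77, 4.28, 5.04 and 12.4 in OPC. In this scaling the median of all regions had a log2 fold change of -0.35 and the 3 sites had 0.22, 0.47 and 0.48 (Egr1, Egr2, upstream Egr3, edgeR adjusted p = 0.914, 0.880 and 0.880).

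The protocol divided each preparation between the stages, so replicates 1, 2 and 4 were compared within a preparation by their labelled numbers. The library titled OL replicate 4 carries the number 3 in the names of its files, so that its pairing with OPC replicate 4 rests on the title. The OL over OPC ratio of normalised reads at Egr2 was 1.69, 1.36 and 1.82 in preparations 1, 2 and 4. At the upstream Egr3 site it was 1.28, 1.70 and 2.20, and at Egr1 it was 1.10, 1.99 and 1.51. All 9 of these ratios were above 1, which had to follow from the groups not overlapping at these sites and is no separate result. The Egr3 promoter (0.993, 1.22 and 1.27) and Egr4 (1.55, 1.68 and 0.769) each had 1 ratio below 1. At the intronic region, with 0 to 2 reads in OL, all 3 were below 1 (0.415, 0 and 0.513). With the preparation as a block, 0 Egr regions and 0 of 557 regions (0.00%) passed edgeR, 106 of all regions had an unadjusted p below 0.05, and the adjusted p was 0.157 at Egr2, 0.187 at the upstream Egr3 site and 0.438 at Egr1.

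By peak strength, as the authors' fold enrichment over input, Egr1 came before the upstream Egr3 site, and that site before Egr2, in each library. The Egr1 peak had a fold enrichment of 38.8, 21.3 and 15.5 in OL replicates 1, 2 and 4 and of 26.5, 15.5, 23.1 and 55.4 in OPC replicates 1 to 4. Among the peaks of its library it ranked 5 of 436, 3 of 47 and 13 of 172 in OL and 15 of 432, 32 of 232, 21 of 383 and 3 of 714 in OPC. The upstream Egr3 peak had 29.3, 11.5 and 12.3 in OL and 20.3, 11.2, 14.1 and 38.1 in OPC, below Egr1 in each library. The strongest Egr2 peak had 19.5, 8.37 and 8.68 in OL and 8.86, 7.53, 7.12 and 16.3 in OPC, the lowest of these 3 regions in each library. The Egr3 promoter peak had 9.15 in OL replicate 1 and 7.21, 6.51 and 13.4 in OPC replicates 1, 2 and 4, the Egr4 peak had 6.01 in OL replicate 1 and the intronic peak had 9.31 in OPC replicate 4. These folds belong to each library's own depth and input, and were not compared between the stages.

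**Figure D4:**
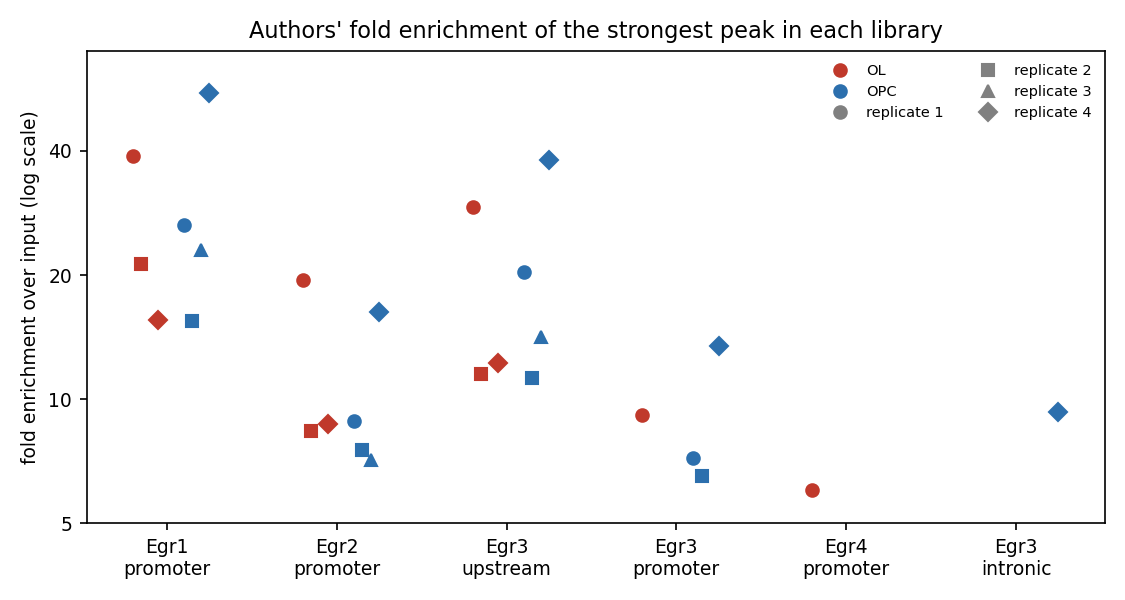
The authors' fold enrichment over input (y axis, log scale) of the strongest peak at each Egr region in each SRF library that had one, with OL in red left of OPC in blue and marker shapes for replicates. In each library the Egr1 point is above the upstream Egr3 point, which is above the Egr2 point, and OL replicate 1 and OPC replicate 4 are the highest of their stages at these 3 regions.

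Summits lay close together at the upstream Egr3 site, and at Egr1 in all libraries but 1. Distances here run from the TSS implied by the authors' annotation. At the upstream Egr3 site the summits of all 7 libraries fell within 38 bp, between 2225 and 2187 bp upstream. At Egr1 the summit was 427 to 458 bp upstream in 6 libraries, a span of 31 bp, and 180 bp upstream in OL replicate 4. In most libraries the Egr1 summit was therefore farther from its start than the 250 bases printed above, which hold both boxes and are counted from the start in the other build, although the peaks reached to within 100 bp of the TSS or past it. At Egr2 the strongest summit was 60 to 194 bp upstream in 6 libraries and 97 bp downstream in OL replicate 2, whose fragment length was estimated at 296 bp, against 72 to 86 bp in the other SRF libraries. A second Egr2 peak lay 190, 226 and 197 bp downstream of the TSS in OL replicate 1, OPC replicate 1 and OPC replicate 2. In OPC replicate 4 a single Egr2 peak of 493 bp spanned both positions. Tags were 70 to 73 bp long in the libraries with estimates of 72 to 86 bp, so those estimates were close to the tag length. Whether summit positions and the split into separate peaks depend on the estimated fragment length was not tested. The Egr3 promoter summits lay 303 to 410 bp upstream in 4 libraries.

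**Figure D5:**
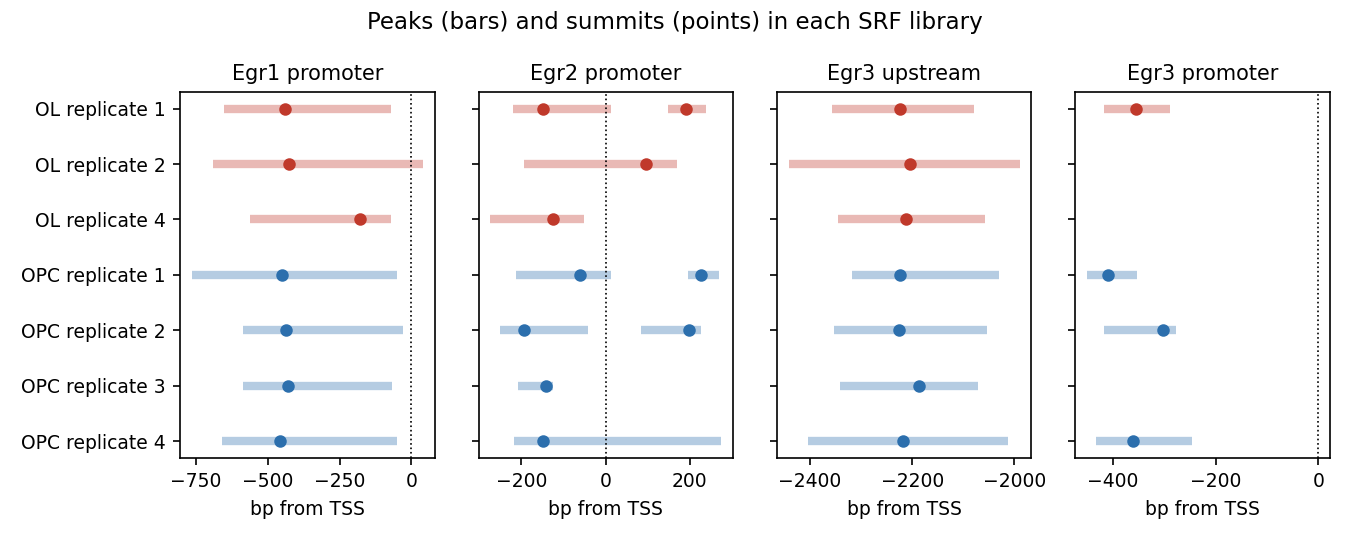
Peaks (bars) and their summits (points) in each SRF library (rows, OL above OPC) at 4 Egr regions, by distance from the TSS in bp (x axis, negative is upstream, dotted line at the TSS). The upstream Egr3 summits line up within 38 bp, the Egr1 summits line up except in OL replicate 4, and Egr2 has peaks on both sides of the TSS.

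Genes that act with the Egr family were set beside it by lists. In all, 739 genes were nearest to an SRF region. By symbol, such genes held 1.57% of RefSeq promoters without an exact CArG box and 4.01% of those with one. None of 7 genes for Egr relatives and corepressors, among them Nab1 and Nab2, which bind Egr proteins and repress them, was the nearest gene of an SRF region. At such low shares, 0 of 7 genes is no result about this list. The list for SRF, its cofactors and the kinases and partners around them held 14 symbols, with older and newer symbols of the myocardin-related factors counted separately. Of these, Srf and Fhl2 had regions, 3 in all, with 0 passing OL against OPC by edgeR, 0 by DESeq2 and 0 at an unadjusted edgeR p below 0.05. Of 40 symbols for other immediate early genes, a few of them older symbols of genes also listed under newer ones, 10 had a region. Of the 7 tested regions of these immediate early genes 0 passed by edgeR, 0 by DESeq2 and 0 at an unadjusted edgeR p below 0.05. That unadjusted level was reached by 21.9% of all tested regions. Of the 7 regions 6 had a positive log2 fold change and the median was 0.30, against -0.01 for all tested regions.

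The other immediate early genes with peaks in at least 5 libraries had fewer mean normalised reads in both stages than Egr1, Egr2 or the upstream Egr3 site. These are totals per region and do not rank the sites by density, which was not compared here. The Egr2 region, at 550 bp, is wider than those of Dusp5 (274245001 to 274245238) and Homer1 (22908691 to 22908943). Btg2, an antiproliferative gene with its region 13296 bp upstream and peaks in 6 libraries, averaged 44.0 ± 30.9 in OL (SD, n = 3) and 24.6 ± 4.57 in OPC (SD, n = 4). Dusp5, an ERK phosphatase, averaged 39.6 ± 4.43 in OL and 29.6 ± 7.76 in OPC, and Junb, an AP-1 subunit, 33.7 ± 5.25 in OL and 32.8 ± 6.20 in OPC. Fosb, another AP-1 subunit, averaged 47.2 ± 38.4 in OL and 26.8 ± 6.46 in OPC, and Homer1, a synaptic scaffold, 36.7 ± 26.2 in OL and 24.1 ± 8.74 in OPC. None of these 5 regions passed, with edgeR adjusted p from 0.323 at Dusp5 to 0.937 at Junb. Among cell type markers, Cspg4 of 8 OPC markers had a region, which overlapped an IgG peak, and Snap25 of 4 neuron markers had one. None of 10 OL, 4 astrocyte, 4 microglia or 4 endothelium and pericyte markers had a region. Few genes of any kind had one, so these small counts are no result about the markers.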

How the data were processed

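The labels' protocols give 7 shearing cycles, 12 PCR cycles and single reads of 75 bp. Trim Galore, BWA, MACS2, HOMER and deepTools, with the build Rnor_6.0, are listed in the submitters' processing notes. How duplicate and multiply matching reads were handled ahead of peak calling is not given in the sources used here. The authors ran MACS 2.2.7.1, per the file headers, on every library with an input as control and a q-value limit of 0.05. The deposited peak tables hold a pileup signal, a fold enrichment ratio, and −log10 values of p and q for each peak. The deposited counts are whole numbers of reads over the consensus regions, not normalized, from featureCounts 2.0.1, which per the file headers counted a read with at least 0.2 of its length in a region. Distances to the TSS are those of the deposited HOMER tables.

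A filter of 10 reads in 3 or more libraries left 557 of the 848 regions. OL was tested over OPC on these with the quasi-likelihood test of edgeR 4.0.16 in R 4.3.3, after TMM over the same regions, with Benjamini-Hochberg adjustment over all of them. The SE is the log2 fold change divided by the root of the F statistic. TMM over all 848 regions was run first and was set aside after its values had been seen, in favour of TMM over the tested regions. It stands among the alternatives. DESeq2 1.42.0, scaling to the tag totals of the peak table headers and leaving out libraries were other alternatives. To obtain normalised read counts, each library's reads were divided by its TMM-scaled size, set to average 1 over the libraries. Densities were compared by exact paired permutation in Python 3.11.15. A region was called in a library where it overlapped a peak by at least 1 bp. The TSS of Egr1, Egr2 and Egr3 was worked out from the deposited distances. That of Egr4 could lie on either strand and was not used. The fit was tested on simulated data.

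Every region named Egr1 to Egr4 was reported, and of the listed genes those with a region called in at least 5 libraries. The members and lists were chosen with earlier results of these data known. Fosl1 in the closing section was named after its values were seen. Replicate numbers 1, 2 and 4 pair the stages because the labels' protocols divide each preparation between them. As a check, the departures from the stage mean of libraries that share a number correlated at 0.0780, 0.227 and 0.170 across 557 regions. Among pairs with unlike numbers, OL replicate 1 and OPC replicate 4 correlated at 0.222, and the others ranged from -0.271 to 0.0664. The IgG and input libraries entered no test. The lists of peripheral myelin genes and Schwann cell markers are not reported here.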

Additional observations from a re-analysis of the deposited data

How the results depend on the processing

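Of the 12 regions that passed edgeR over all regions, none was an Egr region. The count over all regions was 0 when scaled to all tags, 22 with no filter on low counts, 24 for regions without an IgG peak, 49 by DESeq2, 42 by DESeq2 without independent filtering, 35 for reproducible regions only, 1 without both shallow OL libraries and 1 to 31 when 1 library was left out (1 without OPC replicate 4, 4 without OPC replicate 1 or 2, 6 without OL replicate 4, 7 without OL replicate 2 and 31 without OL replicate 1). With the replicate block, which pairs the stages by preparation, it was 0, and the block changed no call of an Egr region. Egr regions passed 2 times by DESeq2, 0 times by DESeq2 without independent filtering, 2 times for promoter regions only, 3 times for reproducible regions only and 0 to 1 times with 1 library left out. Their count was 0 in the other alternatives, among them TMM over all regions before the filter, where Egr1, Egr2 and the upstream Egr3 site had log2 fold changes of 0.57, 0.73 and 0.77. The log2 fold change at Egr1, Egr2 and the upstream Egr3 site was positive in every alternative that tested them, from 0.13 to 0.88, 0.47 to 0.94 and 0.35 to 1.10. That of the Egr3 promoter was -0.017 when scaled to all tags. The density difference of the Egr3 promoter minus Egr4 ranged from -0.036 to 0.26 with 1 library left out and was below 0 without OL replicate 4 (-0.036) or OPC replicate 4 (-0.025), and 10 to 11 of the 15 pairs passed with 1 library left out. With 1 value per preparation 0 pairs passed, since the smallest p is then 0.125. A CArG box with 1 mismatch was held by 21.3% of promoters. The cause of these changes was not tested. The alternatives on promoters, reproducible regions, independent filtering, TMM before the filter and 1 value per preparation were chosen after seeing the data. Counts of 4 to 15 reads in OL replicate 2 limit what can be said of Egr2, Egr4 and the Egr3 promoter.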

Other observations

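The stretch shared by Egr1, Egr2 and Egr4, a CArG box followed after 7 bases by CGTCA, was looked for in all 33469 RefSeq promoters after it had been seen in the Egr genes. Besides the Egr genes it was held by Dusp5, an ERK phosphatase gene, by Fosl1, an AP-1 subunit gene, and by 3 uncharacterised loci. One of these, LOC134485250, has a promoter window that overlaps that of Dusp5 on the opposite strand and holds the same bases. The matches of Dusp5 (chromosome 1) and Fosl1 (chromosome 1) are shown for comparison with the Egr genes, with capitals for the box and the CRE core, and that of Fosl1 has 1 mismatch in the box.
Dusp5: CCTTATATGGgcactcaCGTCA
Fosl1: CCATGTATGGgcagctgCGTCA
Egr1, Egr2 and Egr4 were chosen through their SRF regions and the arrangement was read from their sequences. Of the other 5 matches, Dusp5 and Fosl1 had a symbol that named an SRF region and the 3 loci did not. RefSeq promoters (GRCr8) were matched to the region annotation (Rnor_6.0) by gene symbol alone. A locus without the same symbol in both could not match, so the 3 loci say nothing about SRF there. The most widely called region had a peak in 7 libraries for Egr1 and Egr2, in 5 for Dusp5 and in 1 each for Egr4 and Fosl1. The Fosl1 region averaged 11.9 ± 5.42 normalised reads in OL (SD, n = 3) and 5.62 ± 0.748 in OPC (SD, n = 4), and had too few reads to be tested.

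By the same match of symbols, 22 of the 548 promoters with an exact CArG box belonged to genes nearest to an SRF region (4.01%). The share was 1.57% among promoters without one (518 of 32921). Promoters whose symbol is absent from the region annotation stayed in both totals, so the shares depend on which symbols the builds share. A pair of boxes was held by 7 promoters, of which those of Egr1, Srf and Dusp5 matched, by symbol, genes nearest to an SRF region. A match in a promoter is a description, and whether SRF bound at these letters was not tested.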
